A study of Mus musculus with 2 samples.

Results

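Among the fibro-adipogenic progenitors (FAPs) of mouse quadriceps was a set of cells that carried transcripts of Dmkn, Sbsn and Krtdap, genes best known from the epidermis. They were chosen from the counts themselves. A quadriceps barcode entered the FAP gate with at least 1000 unique molecular identifiers (UMIs, 1 per captured transcript), at most 5% of its UMIs from mitochondrial genes, at least 1 UMI of Pdgfra or Cd34, at least 50 UMIs of Dcn and fewer than 2 of Tnmd. It was a member when Dmkn, Sbsn and Krtdap together reached at least 5 UMIs with at least 2 of the 3 genes seen. The rule took 226 of the 1766 gate cells of quadriceps (12.8%, exact Clopper-Pearson 95% interval 11.3 to 14.4%), out of 7658 barcodes in the series. The remaining 1540 cells of the same gate are the comparison throughout and are called the other gate cells. In diaphragm 52 of 1385 gate cells passed the same rule (3.75%, 2.82 to 4.89%).

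The series profiled mononuclear cells of a limb muscle, the quadriceps, and of a respiratory muscle, the diaphragm, as a second data set in which to look for the FAP subtypes first described in human muscle. Both came from C57BL/6J mice with no treatment named, and the age of the animals was not given in the sources used here. Muscle was digested with collagenase and dispase, cells were taken from a Lympholyte-M interface, the material of several animals was combined for each tissue (10 mice in the series), and viable cells were sorted on light scatter alone. Each tissue gave 1 droplet library, of 5159 barcodes and 50854519 UMIs for quadriceps and 2499 barcodes and 28545242 UMIs for diaphragm, so there was no replicate, no test was possible, and tissue and library cannot be told apart.

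FAPs are mesenchymal cells of the muscle interstitium. They make extracellular matrix, feed signals to muscle stem cells during repair, and can turn into fat cells or scar-forming fibroblasts. In several tissues, fibroblasts with high Pi16 and Dpp4 are described as a progenitor-like state that lies in fascia and around vessels. Dmkn (dermokine), Sbsn (suprabasin) and Krtdap (keratinocyte differentiation-associated protein) encode secreted proteins of the differentiating layers of the epidermis, and they are neighbours in the genome.

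Levels are UMIs summed over the cells of a group and scaled to a common total (CPM), each with an exact Poisson 95% interval where one is given. All intervals cover counting error only and not the spread between animals. Log2 folds compare members with other gate cells after adding 1 CPM to both, which understates the change of low genes. Levels of different genes are not compared with each other. Over all 8408 genes with at least 10 CPM in the pooled gate, 278 were at least 2-fold higher in the members (3.31%) and 572 at least 2-fold lower (6.8%), with a median log2 fold of −0.08. The rule used this contrast, so nothing is read from these shares or from the counts of listed genes beside them.

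On the GRCm38 build with GENCODE M21, the 3 genes lie on the plus strand of chromosome 7, Sbsn at chr7:30751471-30756134, Dmkn at chr7:30763756-30781063 and Krtdap at chr7:30787896-30791097, within 39.6 kb. Their promoters are shown because the members were defined by these 3 genes being seen together in a cell. Each run holds 120 bases of the RefSeq promoter table (GRCm38.p6), plus strand, 110 before and 10 from the annotated start, and capitals mark TGAGTCA, the sequence that AP-1 factors are known to bind. Dmkn had 3 starts in the table, and 2 of them are shown. They were not picked by the heptamer, since a start close to one already taken was passed over.
Dmkn promoter 1, chr7:30763646-30763765: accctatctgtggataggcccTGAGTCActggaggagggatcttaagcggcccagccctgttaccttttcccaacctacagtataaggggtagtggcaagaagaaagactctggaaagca
Dmkn promoter 2, chr7:30776295-30776414: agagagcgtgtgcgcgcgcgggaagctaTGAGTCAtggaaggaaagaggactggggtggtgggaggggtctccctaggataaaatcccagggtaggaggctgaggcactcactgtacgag
Sbsn promoter, chr7:30751361-30751480: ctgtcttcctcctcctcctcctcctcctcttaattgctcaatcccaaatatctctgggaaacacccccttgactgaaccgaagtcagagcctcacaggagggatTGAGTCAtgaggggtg
Krtdap promoter, chr7:30787795-30787914: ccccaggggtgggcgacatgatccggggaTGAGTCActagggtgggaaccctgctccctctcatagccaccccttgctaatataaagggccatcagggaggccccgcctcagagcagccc

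The heptamer began 89 and 82 bases before the start in the Dmkn promoters, 81 before it in Krtdap and 6 before it in Sbsn, where the match runs across the start. Krtdap also held TATAAA 30 bases before its start. Searched on both strands, TGAGTCA was present in 1709 of 32851 mouse promoters of 300 bases (5.20%) and TATAAA in 13.6%. Among genes counted in the quadriceps comparison that matched the table by symbol, TGAGTCA was in the promoters of 294 of 6541 (4.49%), of 14 of the 202 that were at least 2-fold higher in the members beside the 3 rule genes (6.93%) and of 27 of the 408 that were at least 2-fold lower (6.62%). The motif was picked after these sequences had been read, and a match is a description of letters and not a binding site.

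The neighbours of the 3 genes did not follow them. Of 37 other annotated genes within 200 kb that the files held, 7 were high enough to be compared, and their log2 folds in the members against the other gate cells ran from −0.29 (Usf2) to 0.21 (Kmt2b), with 0 past 2-fold. Another 18 had no UMI in the members at all.

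In the members the 3 rule genes were carried at several UMIs in most cells. A member held 0 to 56 Dmkn UMIs (median 4), 0 to 96 Sbsn UMIs (median 21) and 0 to 63 Krtdap UMIs (median 8). The level of Dmkn was 613 CPM (585 to 642) in the members and 0.455 CPM in the other gate cells, where 8 UMIs were counted in all. Sbsn stood at 1972 CPM (1920 to 2024) against 32.6 CPM and Krtdap at 763 CPM (732 to 796) against 3.13 CPM. These values chose the members, so they describe the set and test nothing. All 3 genes were seen in 145 members, Sbsn with Krtdap in 62, Dmkn with Sbsn in 18 and Dmkn with Krtdap in 1.

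The sum of the 3 genes, which chose the members, was 0 in 1271 gate cells, 1 to 2 in 203, 3 to 4 in 34, 5 to 9 in 41, 10 to 19 in 49 and at least 20 in 168. Members had a lowest, median and highest sum of 5, 36 and 150. Just inside the threshold, 2 of the 11 cells with a sum of 5 and 2 of the 9 with a sum of 6 were members. Just outside it, 14 cells had a sum of 4, and 32 cells reached 5 UMIs or more with a single gene, which was Sbsn in 29 of them. The highest sum outside the set was 28.

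**Figure D1:**
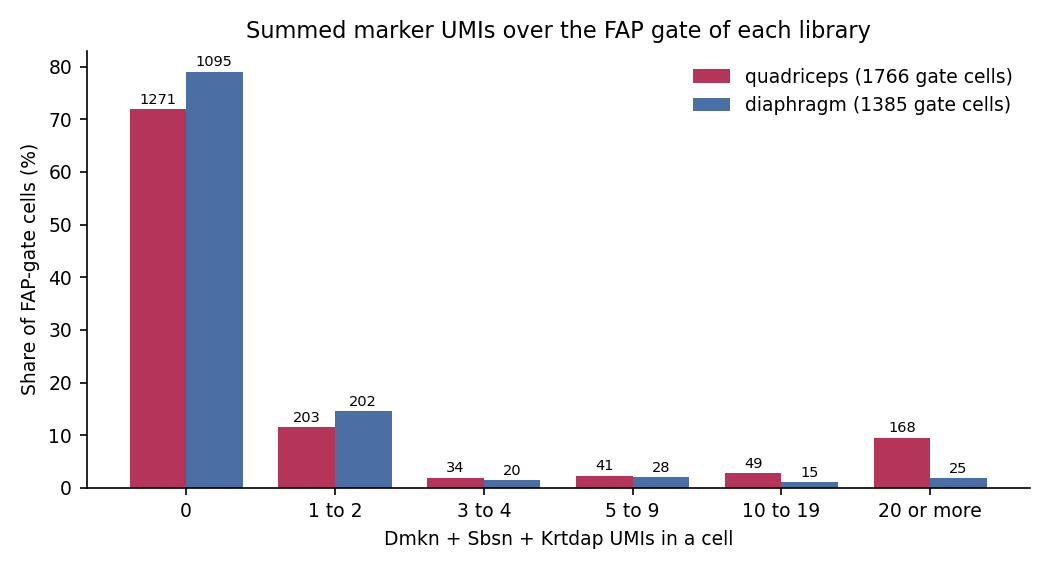
Share of FAP-gate cells (%) by the summed UMIs of Dmkn, Sbsn and Krtdap in a cell, for quadriceps (1766 cells) and diaphragm (1385 cells), with the number of cells above each bar. The bins are of unequal width, and in quadriceps 1271 cells had a sum of 0 and 168 a sum of 20 or more.

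Each of the 3 genes was also read in cells chosen without it. Dmkn stood at 470 CPM in the 291 gate cells with at least 3 UMIs of Sbsn and Krtdap together, against 0.283 CPM in the 1275 cells with neither. Sbsn stood at 2010 CPM in 212 cells chosen by Dmkn and Krtdap, against 31.6 CPM without them. Krtdap stood at 616 CPM in 275 cells chosen by Dmkn and Sbsn, against 2.73 CPM. The same reading in diaphragm gave 156 CPM against 0 UMIs for Dmkn, 1075 against 23.6 CPM for Sbsn and 267 against 0.140 CPM for Krtdap. The rule was built on the 3 genes together, so these levels are a description.

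Depth differed little but moved with the set. Members had a median of 12568 UMIs and other gate cells 10986.5, with median mitochondrial shares of 3.13% and 3.69%. After every cell was thinned to 1000 UMIs, Dmkn was seen in 82 of 226 members (36.3%, 30.0 to 42.9%) and in 0 of 1540 other gate cells, which by the 3 counts that a 0 allows is a share of up to 0.195% at that depth, where 0.455% had a UMI before thinning. Sbsn was seen in 79.2% and 2.73%, and Krtdap in 44.7% and 0.390%. The rule sorted the cells by these genes, so the shares restate it at equal depth. As a background, 176 quadriceps cells with a Ptprc UMI, no Pdgfra UMI and under 50 Dcn UMIs had none of the 3 genes at that depth, which allows up to 1.70% for each. Before thinning, Sbsn was seen in 16.1% of the other gate cells and in 1.14% of these Ptprc cells, whose median depth was 4036.5 UMIs.

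The remaining markers given for these cells were higher in the members as well. Pi16, a secreted protein of the CAP superfamily, had 0 to 317 UMIs in a member (median 108.5) and 0 to 311 in another gate cell (median 1), or 9073 against 1289 CPM (log2 fold 2.81). Aldh1a3, an enzyme that makes retinoic acid, had a median of 4.5 UMIs per member and stood at 410 against 27.9 CPM (3.83). Bmp3, a secreted protein of the BMP family that opposes other BMPs, stood at 166 against 4.83 CPM (4.84), and Il1r2, the decoy receptor of interleukin 1, at 180 against 34.4 CPM (2.35). Counts of the groups overlapped for all 4 genes, since some members had none (Bmp3 was seen in 162 and Il1r2 in 128) and some other cells had many. Thinned to 1000 UMIs, Pi16 was seen in 99.1% of members, 31.4% of other gate cells and 3.41% of Ptprc cells, Aldh1a3 in 31.4%, 2.53% and 0 of 176, and Bmp3 in 15.9%, 0.390% and 0 of 176. Il1r2 was seen in 13.7% of members, 2.86% of other gate cells and 5.11% of Ptprc cells.

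Of the gate genes, Dcn was in every gate cell because the gate required it. Cd34 was seen in every member and in 99.8% of the other gate cells, partly by the gate, since a cell without Pdgfra had to carry Cd34. Pdgfra was lower in the members. Cd34 was at 1573 against 1298 CPM (log2 fold 0.28) and Dcn, the proteoglycan decorin, at 13768 against 22017 CPM (−0.68). Pdgfra, the receptor that defines FAPs, was at 224 CPM (207 to 242) in the members and 538 CPM in the others (−1.26). A UMI of Pdgfra was seen in 83.2% of members and 96.9% of the others. Of 12 FAP identity genes, 1 was at least 2-fold higher (Osr1, 221 against 99.7 CPM), 2 were at least 2-fold lower (Gsn, log2 fold −1.48, and Pdgfra), and the median log2 fold was −0.27 where all genes had −0.08.

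Levels of other genes differed along the summed marker UMIs and not only across the threshold. Pi16 went from 965 CPM in gate cells with a sum of 0 through 1756 CPM at 1 to 2 and 4083 CPM at 3 to 4, and stood at 8034, 7525 and 9510 CPM in members with sums of 5 to 9 (20 cells), 10 to 19 (39) and 20 or more (167). Aldh1a3 took the values 17.7, 39.8, 111, 247, 274 and 455 CPM over the same 6 classes. Akr1c18 went from 0 UMIs to 0.383, 13.1, 32.1, 66.3 and 190 CPM. Il1r2 was already at 170 CPM in the 34 cells with a sum of 3 to 4 and at 173 CPM in the highest class. Lum, which encodes lumican, a proteoglycan of collagen fibrils, was at 1723, 1429, 1331, 293, 490 and 209 CPM. Its largest step lay between the cells with a sum of 3 to 4 and the members with a sum of 5 to 9. The 32 cells that reached 5 UMIs or more with a single gene are in none of these classes. Smoc2, a matrix protein that binds calcium, was at 2717, 1686, 523, 430, 103 and 210 CPM.

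**Figure D2:**
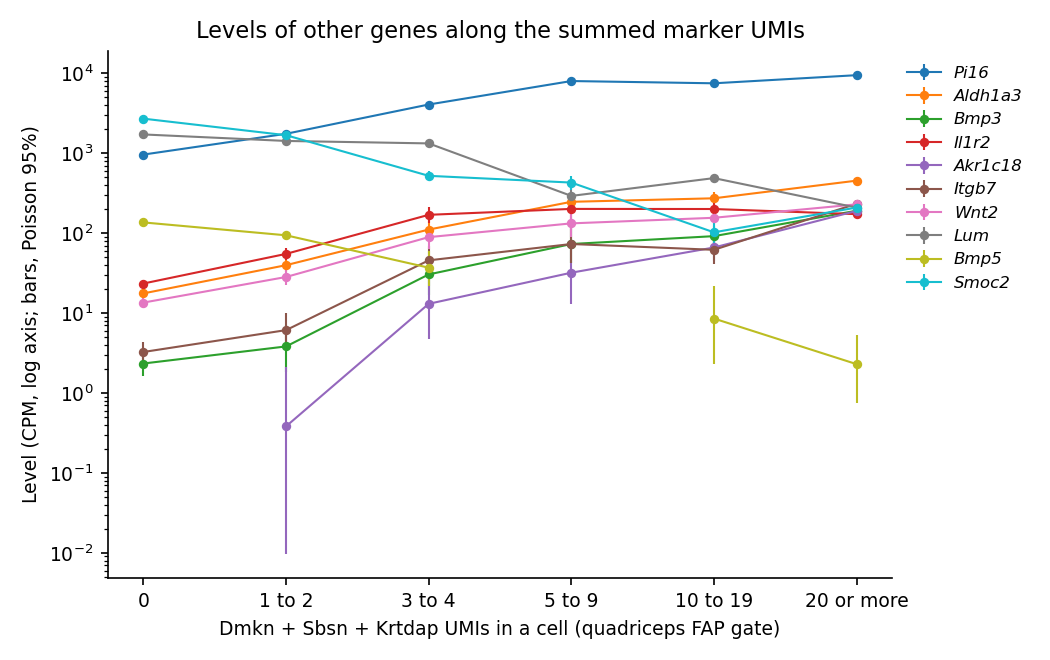
Levels (CPM, log axis, with Poisson 95% intervals) of 10 genes in quadriceps gate cells classed by their summed Dmkn, Sbsn and Krtdap UMIs, with members alone in the classes of 5 UMIs or more. Pi16 goes from 965 to 9510 CPM and Aldh1a3 from 17.7 to 455 CPM between the lowest and highest class, Lum goes from 1723 to 209 CPM, and points at 0 UMIs are not drawn.

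The genes with the largest log2 folds (25 ranked) and the smallest (15 ranked) are described by what they do.

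Several of the leading genes act in signalling between cells. Wnt2, a Wnt ligand, was at 210 CPM (194 to 228) against 21.5 CPM (log2 fold 3.23) and was seen in 78.3% of members and 12.4% of the others. Dact2, which acts on Dishevelled inside the Wnt pathway, was at 129 against 15.4 CPM (2.99). Bmp7, a bone morphogenetic protein, was at 107 against 8.07 CPM (3.57). Il34, a ligand of the CSF1 receptor of macrophages, was at 102 against 12.8 CPM (2.89), and Il18r1, a chain of the interleukin 18 receptor, at 88.8 against 3.86 CPM (4.21). Tmeff1, a membrane protein with follistatin-like modules, was at 65.0 against 1.42 CPM (4.77). Among axon guidance cues, Sema3e (89.8 against 6.93 CPM, 3.52), Sema3d (83.2 against 9.32 CPM, 3.03) and the ephrin Efna5 (84.2 against 8.75 CPM, 3.13) were all higher.

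Akr1c18, a hydroxysteroid dehydrogenase that inactivates progesterone, had the largest log2 fold outside the rule genes, at 158 CPM (144 to 173) against 1.02 CPM (6.30). It was seen in 46.0% of members and 0.325% of the others. Itgb7, an integrin chain known from lymphocyte homing, was at 194 CPM (178 to 210) against 6.42 CPM (4.71), and after thinning it was seen in 12.8% of members, 0.584% of other gate cells and 21.6% of Ptprc cells. Cldn3, a claudin of tight junctions, was at 99.6 against 4.15 CPM (4.29), and Ecscr, known from endothelial cells, at 162 against 18.5 CPM (3.07). Prkg2, a kinase driven by cyclic GMP, was at 81.1 against 5.74 CPM (3.61). Car8, a carbonic anhydrase relative without activity, was at 292 against 34.0 CPM (3.06), and Chst1, a sulfotransferase of glycans, at 175 against 20.9 CPM (3.01). Krt19, a keratin of simple epithelia, was at 55.2 against 3.01 CPM (3.81) and was seen in 27.0% of members.

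Of the 25 leading genes, 2 came from 1 cell. Lyz2, the macrophage lysozyme, was at 70.6 against 5.06 CPM (log2 fold 3.56), but 97.5% of its member UMIs lay in 1 cell, and without that cell the log2 fold was −1.14. H2-Aa, a class II antigen presentation chain, had 96.3% of its member UMIs in 1 cell and went from 2.98 to −1.22 without it. The other 20 leading genes that the rule had not used stayed past 2-fold when each was read without the member that held most of its UMIs.

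**Figure D3:**
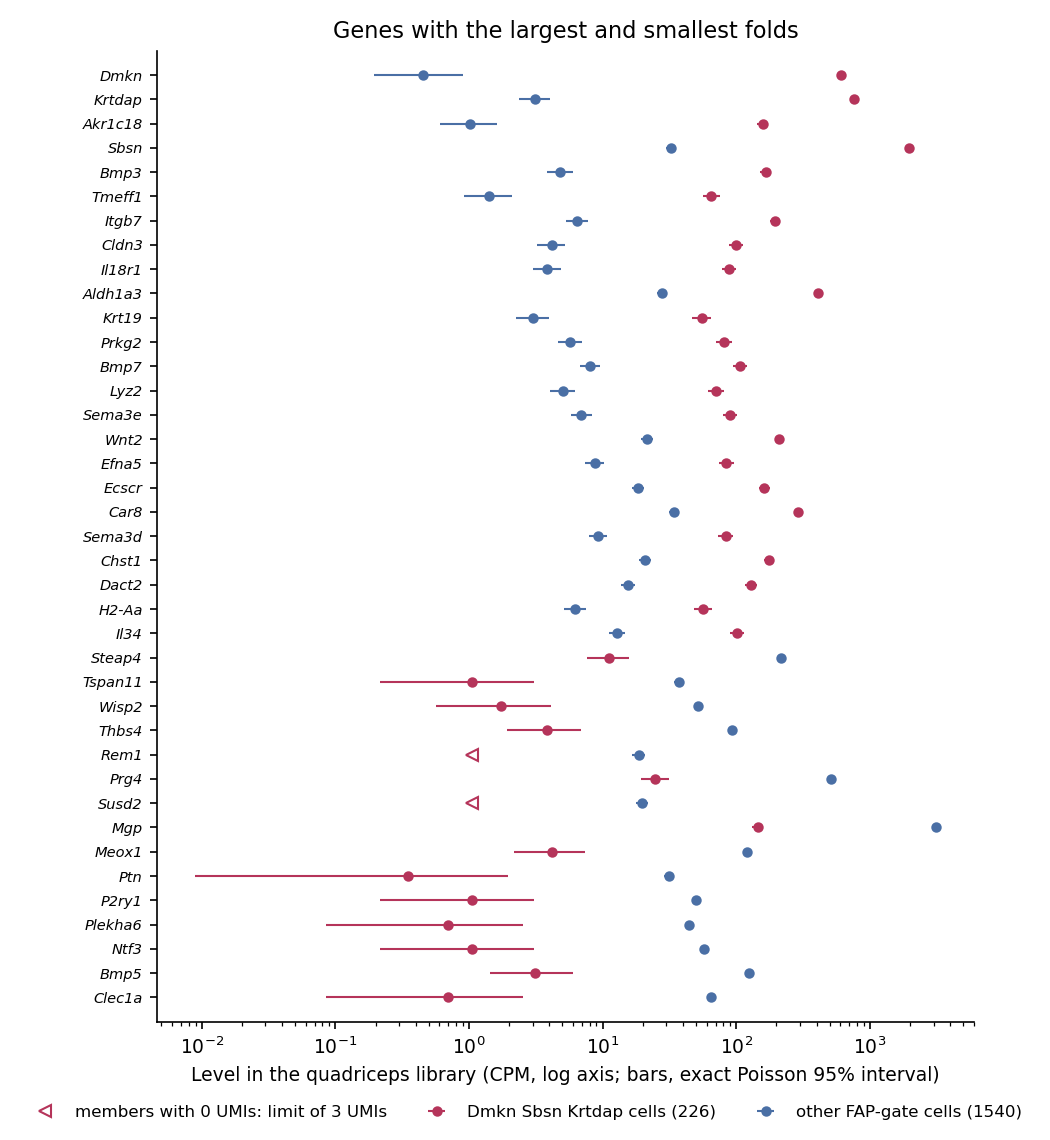
Levels (CPM, log axis, with exact Poisson 95% intervals) of genes with the largest and smallest log2 folds in the 226 members and the 1540 other gate cells of quadriceps. Open triangles mark Rem1 and Susd2, which had 0 UMIs in the members and are drawn at the limit of 3 UMIs. Among the genes higher in the members, Lyz2 and H2-Aa rest on 1 cell.

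At the lower end several genes were close to absent from the members. Rem1, a small GTPase, and Susd2, a membrane protein with a sushi domain, had 0 UMIs in the 226 members against 18.6 and 19.8 CPM in the others, which by the 3 UMIs that a count of 0 allows over the members is at least 17.7-fold and at least 18.9-fold lower, with counting intervals of the ratio that start at 14.3 and 15.3. Clec1a, a C-type lectin receptor, had 2 UMIs in the members and 64.3 CPM in the others, a ratio of 92.0 with a counting interval of 25.4 to 760. Ntf3, the growth factor neurotrophin 3, had 3 UMIs against 57.1 CPM (ratio 54.5, 18.6 to 265). P2ry1, a receptor for ADP, had 3 UMIs against 50.0 CPM (47.7, 16.3 to 232). Plekha6 had 2 UMIs (63.6, 17.5 to 526) and Tspan11, a tetraspanin, 3 UMIs (35.5, 12.1 to 172). Ptn, the growth factor pleiotrophin, had 1 UMI against 31.5 CPM, and its ratio of 90.3 has an interval of 16.1 to 3571.

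Other genes of the lower end kept a measurable level. Bmp5, a bone morphogenetic protein, was at 3.14 CPM (1.44 to 5.97) against 125 CPM (log2 fold −4.93), and Meox1, a homeobox factor of the somites, at 4.19 against 121 CPM (−4.56, or −5.14 without the cell that held 41.7% of its member UMIs). Prg4, the lubricant of joints and tendon sheaths, was at 24.8 against 510 CPM (−4.31), Thbs4, a thrombospondin of tendon and muscle, at 3.84 against 93.4 CPM (−4.28), and Steap4, a metal reductase, at 11.2 against 217 CPM (−4.16). Wisp2, a matricellular protein, had 5 UMIs against 51.8 CPM (−4.27), 60% of them in 1 cell, without which the log2 fold was −4.95. Mgp, an inhibitor of calcification, was at 145 against 3144 CPM (−4.43), and 67.2% of its member UMIs lay in 1 cell, without which the log2 fold was −6.01. All 15 genes of the lower end stayed past 2-fold without the member that held most of their UMIs.

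Of the pathway lists, the 20 genes of the Pi16 and Dpp4 progenitor state had the largest share of higher genes. All 20 could be compared, 17 were at least 2-fold higher and 0 at least 2-fold lower, with a median log2 fold of 1.73. Besides Wnt2, Dact2 and Pi16, the largest value was that of Smpd3, a sphingomyelinase, at 403 against 66.9 CPM (2.57). Dpp4 itself, a membrane peptidase, was at 636 against 176 CPM (1.84). The 3 genes under 2-fold were Ackr3 (0.99), a receptor that scavenges Cxcl12, Ly6c1 (0.82) and Pcolce2 (0.78), which helps to process procollagen.

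**Figure D4:**
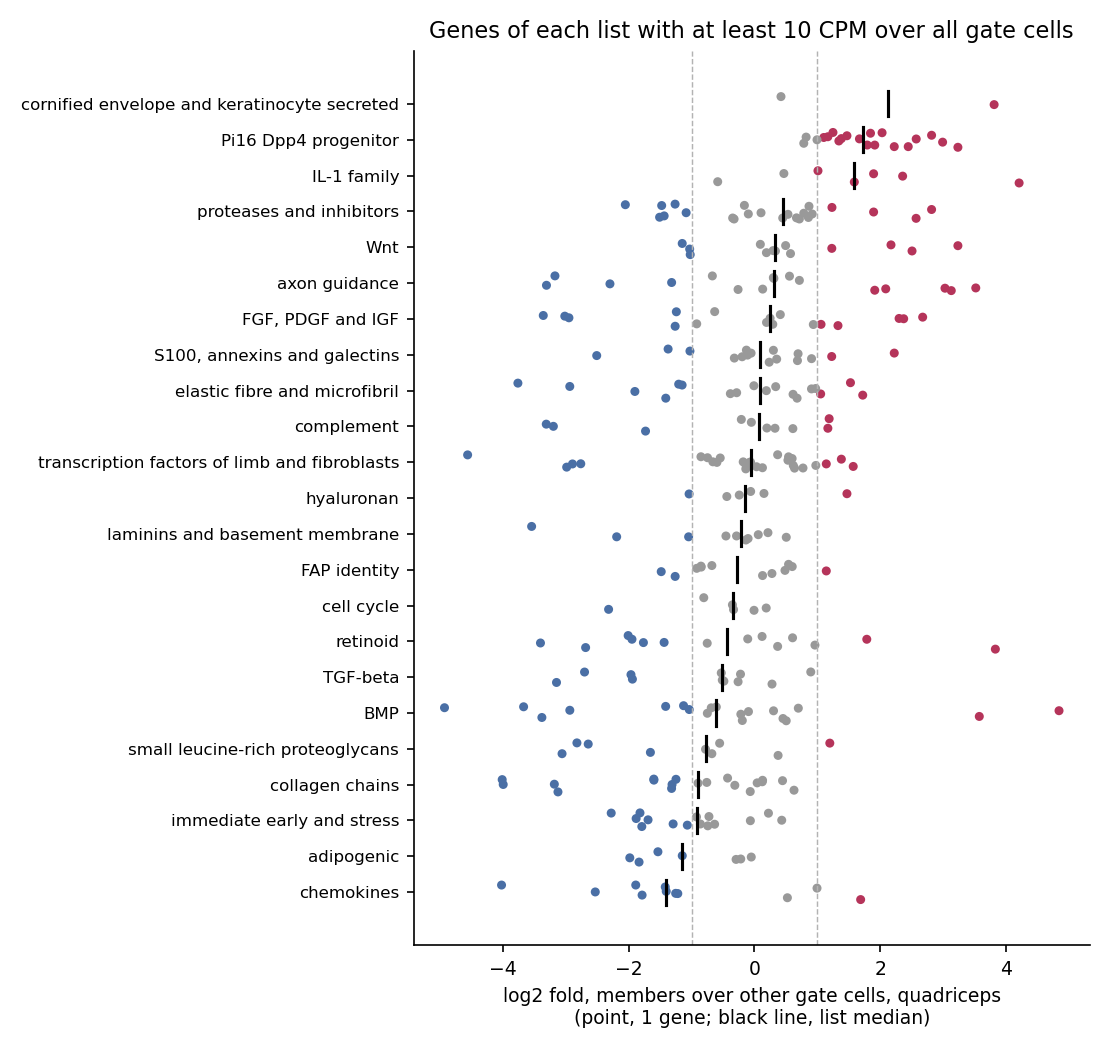
Log2 folds of the compared genes of each list, members over other gate cells of quadriceps, with 1 point per gene, dashed lines at 2-fold and a black line at the list median. The Pi16 and Dpp4 progenitor list has a median of 1.73, the chemokine list −1.40 and the collagen list −0.90.

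Collagens, proteoglycans and basement membrane genes were counted as 3 matrix lists. Of 19 collagen chains 0 were at least 2-fold higher and 9 at least 2-fold lower, with a median of −0.90. Col15a1, a collagen beside basement membranes, was at 30.1 against 499 CPM (−4.01), Col8a1 at 6.64 against 121 CPM (−3.99), and the basement membrane chains Col4a1 and Col4a2 at 116 against 1021 CPM (−3.12) and 50.3 against 464 CPM (−3.18). Of 9 small leucine-rich proteoglycans 1 was higher, Omd at 92.3 against 39.7 CPM (1.20), and 4 lower (median −0.78), with Bgn at 156 against 1308 CPM (−3.06), Podn at 27.3 against 199 CPM (−2.82), Lum at 261 against 1637 CPM (−2.64) and Ecm2 at 73.4 against 233 CPM (−1.65). Of 10 laminin and basement membrane genes 0 were higher and 3 lower (median −0.21), namely Smoc2 (209 against 2444 CPM, −3.54), Nid2 (25.2 against 118 CPM, −2.19) and Hspg2 (283 against 586 CPM, −1.05).

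Elastic fibre and microfibril genes were divided. Of 18 genes 3 were higher and 6 lower, with a median of 0.09. Emilin2 was at 663 against 200 CPM (1.72), whereas its relative Emilin1 was at 17.5 against 68.0 CPM (−1.90). Mfap4 was at 5.24 against 83.5 CPM (−3.76), with 66.7% of its member UMIs in 1 cell (−4.94 without it), and Ltbp4, a carrier of latent TGF-beta, at 117 against 902 CPM (−2.94). Fbn1, which encodes fibrillin 1 and marks one of the FAP subtypes of the study, was at 2445 against 1529 CPM (0.68) and so below 2-fold. Of 23 proteases and inhibitors 4 were higher, among them Adamts16 (63.2 against 9.83 CPM, 2.57) and Mmp23 (300.2 against 80.1 CPM, 1.89), and 6 lower, among them the cathepsin inhibitor Cst3 (692 against 2873 CPM, −2.05). Of 6 hyaluronan genes 1 was higher and 1 lower. Has1, which makes hyaluronan, was at 38.4 against 13.2 CPM (1.47), and Cd44, its receptor, at 37.0 against 77.2 CPM (−1.04), which fell short of 2-fold under several settings, with −0.81 at a mitochondrial limit of 10%. In diaphragm 3 of 6 hyaluronan genes were higher and 0 lower (median 1.12), and Cd44 was at 81.3 against 47.0 CPM (0.78).

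Signalling lists were mixed as well, with the ligands named above on both sides. Of 19 BMP pathway genes 2 were higher (Bmp3 and Bmp7) and 7 lower (median −0.61), with Bmp5 and the extracellular BMP modulator Bmper (4.54 against 69.5 CPM, −3.67) the lowest. Of 14 retinoid genes 2 were higher and 6 lower (median −0.43). Aldh1a3 was the highest, while its relative Aldh1a2, which makes the same product, had 6 UMIs against 31.7 CPM (−3.40), and Adh1, a retinol-oxidising enzyme, was at 21.7 against 90.1 CPM (−2.01). Of 13 Wnt genes 4 were higher and 3 lower (median 0.33). Beside Wnt2 these were Wnt5b (39.5 against 6.14 CPM, 2.50), the secreted Wnt binder Sfrp2 (571 against 126 CPM, 2.17) and Rspo3 (34.2 against 14.0 CPM, 1.23), which enhances Wnt signalling.

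The interleukin 1 family list had 5 of 7 genes higher and 0 lower, with a median of 1.59. Il18, a cytokine, was at 169 against 44.9 CPM (1.89) and Il1rl2, a receptor of interleukin 36, at 109 against 35.6 CPM (1.59). Of 17 FGF, PDGF and IGF genes 5 were higher and 5 lower (median 0.25). The growth factor Pdgfd was at 79.7 against 11.7 CPM (2.67), Igf1 at 55.2 against 433 CPM (−2.95), the IGF binder Igfbp7 at 141 against 1455 CPM (−3.36) and Pdgfrl at 8.39 against 74.8 CPM (−3.01). Igfbp5, another IGF binder, named after its values were seen, was at 7895 against 1525 CPM (2.37). Of 16 axon guidance genes 5 were higher and 4 lower (median 0.30). Epha4, an ephrin receptor, had 2 UMIs against 15.8 CPM (ratio 22.6, 6.20 to 188) and Plxnd1, the receptor of Sema3e, 3 UMIs against 17.4 CPM (16.6, 5.64 to 81.1).

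Of 11 chemokines 1 was at least 2-fold higher and 8 at least 2-fold lower in quadriceps members, with a median of −1.40. Cxcl14 was at 97.1 against 1591 CPM (−4.02), with 51.1% of its member UMIs in 1 cell (−5.02 without it), Cxcl1 at 8.74 against 55.2 CPM (−2.53), Cxcl12 at 85.6 against 319 CPM (−1.89) and Cxcl16 at 8.39 against 31.4 CPM (−1.79). Of 15 immediate early and heat shock genes 0 were higher and 7 lower (median −0.92), among them Nr4a1 (13.3 against 68.2 CPM, −2.28), Egr1 (140 against 498 CPM, −1.82), Hspa1b (264 against 976 CPM, −1.88) and Hspa1a (339 against 1176 CPM, −1.79). Of 11 TGF-beta genes 0 were higher and 4 lower (median −0.51), with Inhba (3.84 against 41.9 CPM, −3.15), Tgfbi (73.0 against 480 CPM, −2.70), Tgfb1 (10.5 against 43.8 CPM, −1.96) and Inhbb (4.19 against 18.9 CPM, −1.94). Of 10 complement genes 2 were higher, C3 at 2843 against 1248 CPM (1.19) among them, and 3 lower (median 0.07), among them Clu (13.3 against 130 CPM, −3.20) and C2 (7.69 against 27.9 CPM, −1.73).

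Among transcription factors of limb and fibroblasts, 3 of 27 were higher and 4 lower (median −0.06). The lower ones were the homeobox factors Meox1, Meox2 (33.2 against 231 CPM, −2.76) and Prrx2 (11.2 against 89.5 CPM, −2.89), and Runx1, with 2 UMIs against 12.4 CPM (ratio 17.8, 4.87 to 148). Of 7 adipogenic genes 0 were higher and 4 lower (median −1.15), with Lpl at 292 against 849 CPM (−1.53), Apod at 333 against 1318 CPM (−1.98), Cebpa at 5.94 against 14.4 CPM (−1.15) and Apoe at 56.6 against 204 CPM (−1.83). Of the member UMIs of Apoe 81.5% lay in 1 cell, without which it was at 10.5 CPM (−4.15). Of 16 annexin, S100 and galectin genes 2 were higher, Anxa3 (2602 against 557 CPM, 2.22) and Anxa1 (2086 against 890 CPM, 1.23), and 3 lower (median 0.09), with S100a4 (91.9 against 527 CPM, −2.51) and Anxa5 (447 against 1160 CPM, −1.37). Of 6 cell cycle genes 0 were higher and 1 lower, the growth arrest gene Gas1 (150 against 753 CPM, −2.32).

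The epidermal genes beyond the 3 of the rule were mostly not seen. Of 25 genes of the cornified envelope and of keratinocyte secretion, 18 had no UMI in the members and 2 could be compared, Krt19 and Krt10 (39.8 against 29.5 CPM, 0.42). Of 10 keratinocyte markers 7 were at 0 in the members, the basal keratins Krt5 and Krt14, Ivl, Lor, Trp63 and Epcam among them, and the list summed to 41.9 CPM in the members and 33.5 CPM in the others. Apart from Dmkn, Sbsn and Krtdap, then, the defining markers of keratinocytes were at 0 or at the level of the other gate cells.

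Markers of other cell types were read the same way. Mesothelial markers summed to 55.6 against 3.30 CPM, of which Krt19 gave 55.2 CPM, and Msln, Wt1 and Lrrn4 were at 0 in the members. Immune markers summed to 78.6 against 12.8 CPM, and 1 member held 1074 of the 1114 member UMIs of class II genes and Lyz2, where the next cell had 3. Tenocyte markers (5.24 against 98.5 CPM) and synovial or cartilage markers (37.4 against 593 CPM) were lower in the members. Of the tenocyte sums, Thbs4, the 1 gene counted, gave 3.84 and 93.4 CPM. The tenocyte list also holds Tnmd, which the gate kept below 2 UMIs in both groups. Smooth muscle and pericyte markers summed to 159 against 187 CPM, with a UMI in 83.6% of members and 82.9% of the others, and 3 of 3 counted genes were within 2-fold. Satellite cell markers summed to 12.2 against 38.1 CPM, and the 1 counted gene was at least 2-fold lower (−1.44). Endothelial (3.14 against 6.25 CPM), perineurial (26.9 against 19.3 CPM) and adipocyte markers (0.349 against 0.0568 CPM) had no gene high enough to be counted. The members richest in class II and Lyz2, in Mgp and in Cxcl14 were different cells, and without 4 members rich in RNA scarce in the rest, these among them, 271 genes were higher and 581 lower. Their part in single values was not tested beyond leaving them out.

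Members were not uniform. Akr1c18 was unseen in 54.0% of them and reached 20 UMIs in one, Itgb7 was unseen in 43.8% and reached 25, and Il1r2 was unseen in 43.4% and reached 19. By contrast Chst1 was seen in 85.0% of members and Car8 in 88.9%. The 104 members with an Akr1c18 UMI had 864 CPM of Dmkn and the 122 without one 383 CPM, with 269 against 124 CPM for Itgb7, 140 against 62.2 CPM for Cldn3 and 92.9 against 39.5 CPM for Tmeff1. Lum was at 192 against 324 CPM in the same split. Median depth was 13229.5 and 12079.5 UMIs in these 2 groups, and a deeper cell shows a UMI more often.

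A split by Il1r2, at nearly equal depth, gave other values (medians of 12553.5 and 12584 UMIs). The 128 members with Il1r2 had 115 CPM of Il18r1 and the 98 without it 55.0 CPM, while Itgb7 was at 157 against 240 CPM, Dmkn at 583 against 652 CPM and Lum at 167 against 382 CPM. Members with a Dmkn UMI (164 cells) and those without one (62 cells) had nearly the same Pi16 level, 9040 and 9173 CPM, but Akr1c18 at 190 against 61.6 CPM and Itgb7 at 228 against 91.0 CPM. Over the 226 members, which share a library and were chosen on 3 of these genes, log-scaled levels gave Pearson's r of 0.46 for Dmkn with Sbsn, 0.41 for Aldh1a3 with Igfbp5 and −0.37 for Pi16 with Lum. Of 435 pairs among 30 genes, 20 had r of at least 0.3 and 2 had −0.3 or less, and such values are weak in sparse counts.

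High Pi16 alone did not pick out these cells. Of the quadriceps gate cells with no Pi16 UMI 1 of 572 was a member, with 10 to 49 UMIs 18 of 288 (6.25%), with 50 to 99 UMIs 84 of 181 (46.4%) and with at least 100 UMIs 123 of 174 (70.7%, 63.3 to 77.3%). In diaphragm, gate cells with at least 100 Pi16 UMIs were nearly as many (153), and 38 of them were members (24.8%, 18.2 to 32.5%). With 50 to 99 UMIs 11 of 290 diaphragm cells were members (3.79%). With 1 library per tissue this difference could not be tested.

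The share in diaphragm was also the lower one at equal depth. Diaphragm gate cells were deeper, and after all gate cells were thinned to 5000 UMIs before the rule was applied, 190 of 1709 quadriceps cells passed (11.1%, 9.67 to 12.7%) and 33 of 1375 diaphragm cells (2.40%, 1.66 to 3.35%). The libraries shared 5 barcodes, of which 1 was a quadriceps member. In diaphragm members the 3 rule genes were at 253 CPM for Dmkn, 932 CPM for Sbsn and 436 CPM for Krtdap, against 0.0565, 23.7 and 0.170 CPM in the 1333 other gate cells. Pi16 was at 8146 against 3163 CPM (log2 fold 1.36) and Aldh1a3 at 131 against 23.7 CPM (2.41).

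Most leading genes of quadriceps had the same direction in diaphragm, where the members are fewer and each gene rests on less. Over 8208 genes counted there, 296 were at least 2-fold higher (3.61%) and 519 at least 2-fold lower (6.32%). Of the 22 highest genes of quadriceps outside the rule, 20 had the same sign and 18 were past 2-fold in diaphragm, or 16 when each gene was read without the member that held most of its UMIs. Of the 15 lowest, 14 were past 2-fold. Akr1c18 was at 77.9 against 0.113 CPM, Dact2 at 173 against 10.6 CPM (3.90), Ecscr at 71.0 against 3.05 CPM (4.15), Cldn3 at 66.4 against 3.17 CPM (4.02), Car8 at 152 against 11.3 CPM (3.64) and Chst1 at 167 against 21.8 CPM (2.88).

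A few markers did not carry over or rested on few UMIs. Il1r2 had 1 UMI in the 52 diaphragm members and 1.75 CPM in the other gate cells there, and Prkg2 had 0 UMIs. Bmp3 had 9 UMIs, 4 of them in 1 cell. Its level of 10.3 against 0.452 CPM (2.96, or 2.29 without that cell) stayed past 2-fold. Il34 was at 8.01 against 7.58 CPM (0.07). Sfrp2 was at 79.0 against 95.8 CPM (−0.27) and C3 at 1755 against 1617 CPM (0.12). The 17 Krt19 UMIs all lay in 1 member, as did 4 of the 5 of Il18r1. That cell was the deepest of the diaphragm members, with 51918 UMIs where the next had 25087.

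**Figure D5:**
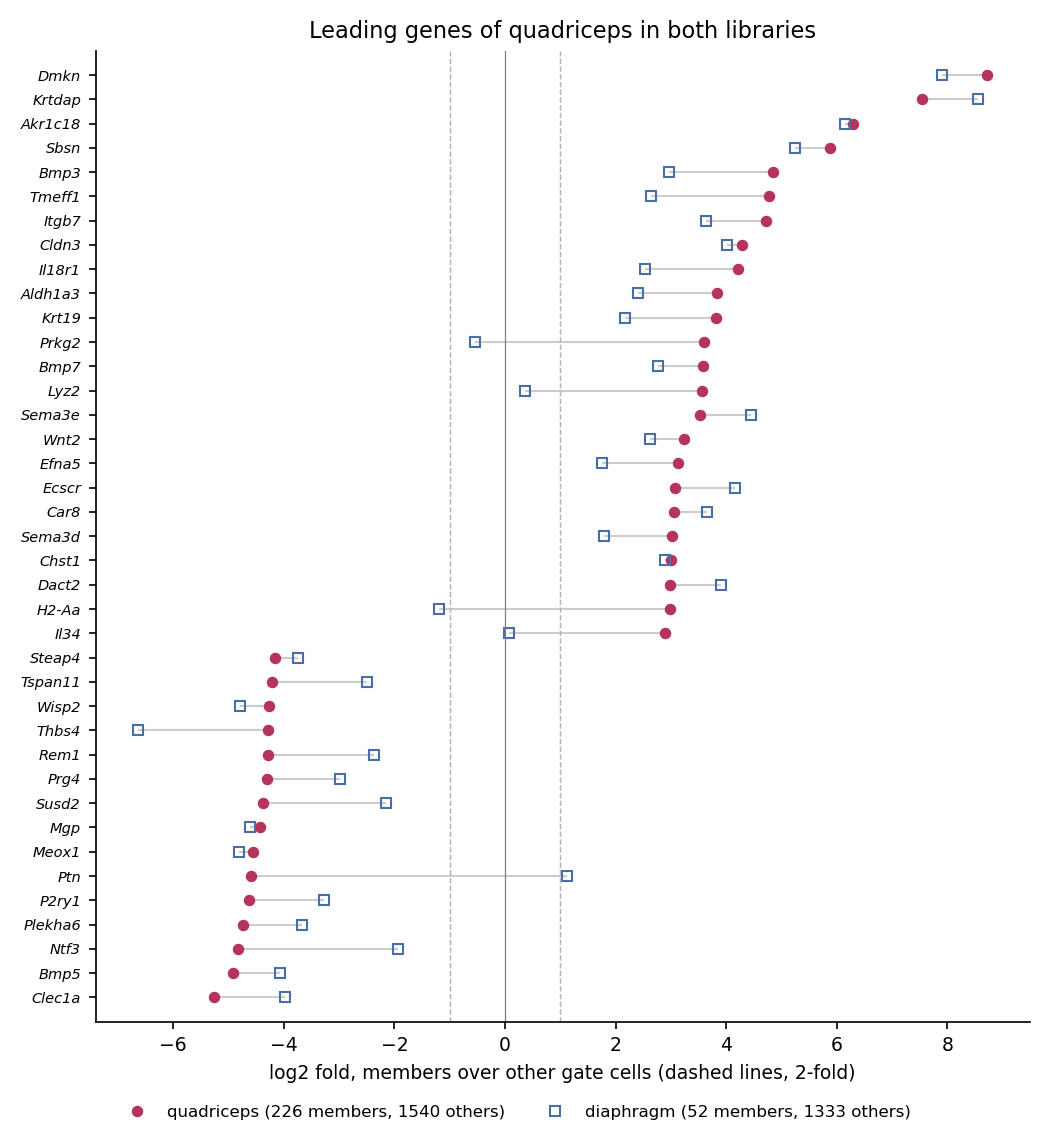
Log2 folds of members over other gate cells for genes with the largest and smallest folds of quadriceps, in quadriceps (filled points) and diaphragm (open squares), with dashed lines at 2-fold. Prkg2 and H2-Aa are below 0 in diaphragm, where they had 0 UMIs in the members, and Ptn, with 2 UMIs there, is above 0.

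Among 7959 genes counted in both libraries, 138 were at least 2-fold higher in both, which is 66.0% of the 209 of quadriceps and 50% of the 276 of diaphragm. The 138 hold the 3 rule genes, which the same rule set higher in each library. Another 288 were at least 2-fold lower in both, 55.9% of 515 and 63.6% of 453. The list of the Pi16 and Dpp4 state had 19 of 20 genes higher in diaphragm (median 1.81, where all genes had 0.02), and collagens had 0 of 20 higher and 10 lower (median −1.02). Chemokines had 4 of 13 higher and 5 lower (median −0.01), and immediate early and heat shock genes 0 of 16 higher and 1 lower (median −0.28). Differences between the libraries were not tested.

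The human FAP subtype gene lists of the study were also counted. Of 48 compared genes of the human LUM+ list, 1 was higher and 30 lower in quadriceps members (median −1.49), and in diaphragm 1 of 47 was higher and 30 lower (median −1.35). Of 142 compared genes of the human FBN1+ list, 19 were higher and 9 lower (median 0.15), and in diaphragm 29 of 144 were higher and 10 lower (median 0.28).

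A group of 239 non-member gate cells had at least 3 UMIs of Stmn4, Cmah and Fam167a, with at least 2 of the 3 genes seen. Among the groups of other FAPs compared, these cells had the Pi16 and Dpp4 levels closest to the members. Likeness was not ranked over all other gate cells. Against them, 170 of 8168 genes were at least 2-fold higher in the members (2.08%) and 167 lower (2.04%). The 3 genes that chose these cells were also carried by the members, with Stmn4 at 184 CPM in members and 285 CPM in these cells (−0.63), Cmah at 111 and 148 CPM (−0.41) and Fam167a at 78.3 and 118 CPM (−0.59). Levels of the shared state were close for Tek, the angiopoietin receptor (215 CPM in members and 216 CPM in these cells), and Dpp4 differed by less than 2-fold (636 and 399 CPM). Fbn1 was at 2445 and 3663 CPM (log2 fold −0.58). Pi16 was at 9073 and 3483 CPM (1.38), Akr1c18 at 158 and 4.42 CPM (4.87), Bmp3 at 166 and 12.6 CPM (3.62), Aldh1a3 at 410 and 91.9 CPM (2.14), and Il34 at 102 and 6.31 CPM (3.81). Aldh1a2 was at 2.10 and 25.9 CPM and Prg4 at 24.8 and 208 CPM, where 38 of the 239 cells also belonged to the Prg4 cells below.

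The other groups compared lay further from the members at the genes given here. These were 490 Prg4 cells and 434 cells with Cxcl14 and Hsd11b1, groups that shared 77 cells. The Stmn4 cells shared 38 cells with the first group and 6 with the second, so the groups are not separate. In the Prg4 cells and the Cxcl14 and Hsd11b1 cells, Pi16 was at 708 and 322 CPM, Dpp4 at 113 and 48.0 CPM and Aldh1a3 at 8.92 and 6.23 CPM. Lum was at 1368 and 2702 CPM there, 651 CPM in the Stmn4 cells and 261 CPM in the members. Igfbp5 followed the reverse order, with 1483, 574, 4124 and 7895 CPM.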

How the data were processed

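Single-cell RNA was measured in 1 quadriceps and 1 diaphragm library. The deposited values were raw UMI counts per gene and barcode, which the authors made from reads aligned to mm10, with Cell Ranger 3.0.0 and Seurat named in the submitters' processing notes; the deposited barcodes were already called as cells. Of 27998 gene IDs, 27645 matched GENCODE M21. The mitochondrial limit of 5% was taken over 13 genes, and no doublets were removed. Groups followed the rule given in the text. UMIs were summed over cells and scaled to CPM, log2 folds used a pseudocount of 1 CPM, genes with at least 10 CPM over all gate cells together were counted, and 2-fold was the limit for a call. Shares carry Clopper-Pearson intervals and CPM exact Poisson intervals, both at 95%, and a count of 0 allows 3 counts. With 1 library per tissue no test was made.

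The members, the gene lists and the comparison groups were chosen with earlier results of these data known, so the lists support nothing on their own. Genes named in the text were the rule, marker and gate genes, the 25 largest and 15 smallest log2 folds, up to 4 genes per list with the largest size of log2 fold, and genes within 200 kb of the rule genes. Ackr3, Ly6c1, Pcolce2, Dpp4, Fbn1, Tek, Igfbp5 and the genes that went opposite ways in the libraries were named after their values were seen. A few genes that this rule takes are not reported here. Promoters came from RefSeq tables of GRCm38.p6. Python 3.11.15, numpy 2.4.6, scipy 1.17.1, pandas 2.3.3, scanpy 1.11.5 (Scrublet) and matplotlib 3.10.9 were used, and the fold calculation was checked on simulated data. Alternatives to the marker sum, depth, mitochondrial and Dcn limits, doublets, comparison cells, scaling, pseudocount and low-value filter were computed.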

Additional observations from a re-analysis of the deposited data

Results flagged for a closer look

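In 12 genes the members were past 2-fold in opposite directions in the 2 libraries. The difference was not tested, since each library is 1 sample. The log2 fold in quadriceps and diaphragm was −2.74 and 1.23 for Arhgdib, −1.73 and 1.26 for C2, −1.25 and 2.88 for Ccl2, −1.42 and 1.51 for Ccl7, −2.77 and 1.36 for Cldn15, −1.01 and 1.26 for Enc1, −1.54 and 1.13 for Ephx4, −1.34 and 1.69 for Ezr, −3.82 and 1.28 for Fmo2, −1.22 and 1.35 for Kitl, 1.20 and −1.06 for Omd, and 1.04 and −1.60 for St3gal5. Single cells moved with most of these values. The diaphragm member of 51918 UMIs held the most UMIs in 6 of the genes, among them 95.9% of those of Fmo2, 94.4% of C2, 90.9% of Arhgdib, 75% of Ezr and 100% of Cldn15. Read without the member that held most of each gene's UMIs, Fmo2 was at −3.14, C2 at −2.36, Arhgdib at −1.70, Cldn15 at −3.58 and Ezr at −0.19 in diaphragm, and 4 of the 12 genes kept a diaphragm value past 2-fold on the same side: Ccl2 (1.01), Enc1 (1.04), Omd (−1.27) and St3gal5 (−1.92). In quadriceps 62.9% of the member UMIs of Ccl2 lay in 1 cell, and St3gal5 was at 0.98 without its top cell.

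Among quadriceps cells outside the comparison, 19 met every other part of the gate and the marker rule but were over the mitochondrial limit, out of 562 such gate cells. Of the quadriceps cells within the UMI and mitochondrial limits, none that passed the marker rule had 2 or more Tnmd UMIs or was among the Ptprc cells.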

How the results depend on the processing

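The 226 members became 239 with a marker sum of at least 3 UMIs, 206 with at least 10, 190 after thinning, 241 at a mitochondrial limit of 10%, 231 with at least 20 Dcn UMIs, 225 without Scrublet calls and 226 under an upper UMI limit, which no gate cell exceeded. Scrublet called 1.84% of quadriceps and 0.120% of diaphragm barcodes, and its few calls in diaphragm were not relied on. The numbers of genes at least 2-fold higher and lower (278 and 572) moved most with the low-value filter, to 599 and 1242 without one and to 111 and 221 at 50 CPM, since other genes are then counted. Under the other settings they ran from 240 to 311 and from 468 to 595, with 311 and 520 under median-ratio scaling. Of 157 named genes 110 were past 2-fold, and their 1428 alternative values were under it 11 times, for Cd44, Hspg2, Tnmd and Cebpa. Many of the named genes were picked for large folds in these same cells, so staying past 2-fold was favoured from the start. Lyz2 and H2-Aa reversed, to −1.31 and −1.20 without the 4 cells rich in RNA scarce in the rest and to −1.14 and −1.22 without their top cell. Without the deepest diaphragm member 290 genes were higher and 579 lower there, where all 52 gave 296 and 519. The 4 cells, the deepest cell and the top cells were left out as alternatives chosen after seeing the data. No paired analysis was possible because each tissue had 1 library. Counts of 1 to 3 UMIs and the 52 diaphragm cells limit what depth can show.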
